A study of Mus musculus and Homo sapiens with 34 samples.

Results

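The mitotic spindle and kinetochore genes described here are 33 genes whose products build and steer the mitotic spindle, join chromosomes to it, time their separation and divide the cell. They were chosen by symbol, with case ignored, and all 33 were found among the 55450 mouse genes and again among the 58870 human genes of the deposited count tables. All 33 passed the filter on low counts in every comparison. The samples were multicellular spheroids of 3 colorectal carcinoma lines: CT26 and MC38 from the mouse, and HT29 from a human adenocarcinoma. Spheroids called SIS ECM, or MatriSpheres, were seeded with a decellularised extracellular matrix, SIS being the usual abbreviation of small intestinal submucosa, and spheroids called cells alone without it. Both kinds grew for 7 days on low-attachment plates, from cells kept in RPMI medium with fetal bovine serum, and each library came from a tube of 10 pooled spheroids. CT26 and HT29 had 6 SIS ECM libraries against 6 cells-alone libraries. MC38 had SIS ECM libraries 1, 3, 4, 5 and 6 against cells-alone libraries 1 to 5. Each is a single established line. Separate cultures behind the libraries of a group are not stated, so the spread that each p-value rests on may be technical.

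A dividing cell enters mitosis when the kinase CDK1 is activated by cyclin B, then assembles a bipolar spindle whose microtubules capture each chromosome at its kinetochore, a protein plate built on centromeric chromatin. The spindle checkpoint holds the cell until every kinetochore is attached. The anaphase-promoting complex then has securin and cyclins destroyed, chromatids part, and the central spindle guides the furrow that splits the cell. Transcripts of this machinery accumulate mainly in late S, G2 and M phase, and complexes that hold the MuvB core repress many of these promoters in resting cells and activate them in cycling ones, through an element named the CHR, often beside CCAAT boxes. In bulk RNA, fewer cells in these phases and less RNA per cell cannot be told apart, for any of the values below.

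Polyadenylated RNA was sequenced to 15830000 to 24200000 counts per mouse library and 25520000 to 37000000 per human library, and levels are given in CPM, counts normalised to library size with TMM factors. Mouse libraries 4 to 6 stood apart from libraries 1 to 3 in both lines, with mitochondrial transcripts at 5.71 to 8.59% of counts against 3.42 to 5.01%, so each mouse result is given over all libraries and within each range of numbers. What the ranges were in the laboratory is not stated. Of 12 epithelial markers, Epcam, Cdh1, Cldn3, Cldn4 and Cldn7 were at 0 in every CT26 library, while 3, Krt18, Krt20 and Cdh17, exceeded 1 CPM on average. In MC38 none exceeded 1 CPM, and Epcam was again at 0, while HT29 expressed all 12. In both mouse lines 6 of 9 fibroblast markers exceeded 1 CPM, and in HT29 none did. Epcam, Cldn3 and Cldn4 were thus at 0 in every library of both mouse lines, which are labelled as carcinoma. CT26 still held other epithelial markers.

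Promoters are shown for the 4 of the genes that fell in CT26 that have an entry. The CHR, the CCAAT box or both can be read in each of them. RefSeq tables of the GRCm38.p6 build held an entry, 250 bases before to 50 after the start site, for 28 of the 33 genes, without Aurkb, Ccna2, Incenp, Kif20a and Tpx2. The CHR was searched as TTTGAA or TTCGAA and the CCAAT box as CCAAT, each on both strands, so that TTCAAA and ATTGG also count. No match of one overlapped a match of another in the sequences shown. A CHR in either form was found in 21 of 28 genes (75%), against 20.2% of 17491 protein-coding genes, in windows of the same length. A gene with several entries counted where any of its windows matched, so both motifs of a gene may come from different windows. The CCAAT box occurred in 20 of 28 (71.4%), against 42.3%, and both together in 18 of 28 (64.3%), against 9.24%. Top2a held 4 CHR matches and 6 CCAAT boxes. Birc5, Mad2l1, Nuf2, Nusap1 and Pttg1 held neither within this window, Ccnb1 and Cenpe held CCAAT boxes alone, and Anln, Kif2c and Ndc80 the CHR alone. Matches describe letters and do not show binding. Capitals mark CHR and CCAAT matches in these 5′ to 3′ sequences, read along the coding strand.
Kif11 (chr19:37376132-37376431, plus strand): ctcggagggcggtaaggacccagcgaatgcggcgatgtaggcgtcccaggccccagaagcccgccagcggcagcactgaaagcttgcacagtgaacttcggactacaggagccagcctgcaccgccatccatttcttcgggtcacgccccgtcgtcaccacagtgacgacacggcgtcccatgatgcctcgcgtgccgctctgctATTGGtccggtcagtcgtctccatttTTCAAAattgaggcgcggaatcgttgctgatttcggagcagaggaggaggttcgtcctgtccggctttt
Cenpe (chr3:135212313-135212612, plus strand): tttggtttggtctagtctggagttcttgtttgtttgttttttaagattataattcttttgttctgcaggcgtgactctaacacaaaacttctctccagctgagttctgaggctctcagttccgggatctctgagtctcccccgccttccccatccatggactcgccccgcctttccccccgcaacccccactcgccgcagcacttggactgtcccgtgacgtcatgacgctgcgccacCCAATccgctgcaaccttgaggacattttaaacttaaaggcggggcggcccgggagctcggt
Ect2 (chr3:27153829-27154128, minus strand): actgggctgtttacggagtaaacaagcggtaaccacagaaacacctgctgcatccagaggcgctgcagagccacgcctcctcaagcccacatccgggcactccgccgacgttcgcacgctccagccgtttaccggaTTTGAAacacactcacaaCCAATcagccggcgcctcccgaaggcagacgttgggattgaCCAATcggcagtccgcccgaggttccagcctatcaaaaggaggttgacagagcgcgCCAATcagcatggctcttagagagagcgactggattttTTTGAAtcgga
Anln (chr9:22389157-22389456, minus strand): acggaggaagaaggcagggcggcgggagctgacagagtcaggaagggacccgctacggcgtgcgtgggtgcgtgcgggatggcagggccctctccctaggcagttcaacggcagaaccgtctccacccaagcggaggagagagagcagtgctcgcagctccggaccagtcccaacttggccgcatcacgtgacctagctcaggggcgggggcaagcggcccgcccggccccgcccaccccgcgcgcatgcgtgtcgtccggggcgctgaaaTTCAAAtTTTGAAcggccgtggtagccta
Distances are from the start sites of the RefSeq entries. For Kif11, Cenpe and Anln these differ from the gene coordinates given below, which come from another annotation. Those coordinates place the Cenpe box inside the gene. In Kif11 the CCAAT box begins 45 bases and the CHR 19 bases before the start site. Cenpe holds a single CCAAT box 12 bases before its start, Ect2 holds 3 CCAAT boxes and 2 CHR matches, and Anln holds 2 CHR matches a base apart just after its start.

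Culture with SIS ECM lowered 5 of the 33 genes in CT26 and raised none. The genes that fell were the spindle motor Kif11, the kinetochore motor Cenpe, the spindle assembly factor Tpx2 and the cytokinesis genes Ect2 and Anln. A gene is said to have risen or fallen where its adjusted p was below 0.05 by edgeR's quasi-likelihood test, after Benjamini-Hochberg correction across every gene tested. Over all 12269 genes, 3.1% fell and 9.25% changed either way. The fold change was negative in 32 of the 33, the exception being Racgap1 (log2 fold change 0.002), and its median was −0.19, against 0.008 over all genes, of which 48.5% were negative.

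Kif11 (ENSMUSG00000012443.4; mm10 chromosome 19, 37376403 to 37421859, plus strand), the motor that pushes spindle poles apart, had 170.4, 158.4, 189.1, 233.2, 202.7 and 213.0 CPM in SIS ECM libraries 1 to 6, against 273.8, 270.9, 245.6, 259.8, 253.0 and 246.1 CPM in cells-alone libraries 1 to 6. All 6 SIS ECM libraries lay below every cells-alone library, and SIS ECM libraries 1 to 3 were the lowest. Its log2 fold change was −0.41 ± 0.09 (SE, adjusted p = 0.00922).

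Cenpe (ENSMUSG00000045328.11; chromosome 3, 135212537 to 135273611, plus strand), which carries chromosomes to the spindle equator, had 257.5, 320.2 and 388.7 CPM as the lowest, median and highest SIS ECM library, against 378.5, 426.9 and 447.6 CPM in cells alone. The groups overlapped: SIS ECM library 4 was above cells-alone library 3. The log2 fold change was −0.41 ± 0.10 (adjusted p = 0.0209).

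Ect2 (ENSMUSG00000027699.19; chromosome 3, 27097222 to 27153878, minus strand), the exchange factor that switches on RhoA at the division plane, had 150.3, 206.7 and 236.8 CPM as the lowest, median and highest SIS ECM library, against 244.8, 250.7 and 282.5 CPM in cells alone. The groups did not overlap, and the log2 fold change was −0.37 ± 0.10 (adjusted p = 0.0274). Anln (ENSMUSG00000036777.8; chromosome 9, 22332012 to 22389188, minus strand), anillin, a scaffold of the contractile ring, had 611.0, 727.0 and 788.5 CPM in SIS ECM and 803.7, 833.3 and 912.9 CPM in cells alone (−0.27 ± 0.08, adjusted p = 0.0439). Tpx2 (ENSMUSG00000027469.16; chromosome 2, 152847964 to 152895321, plus strand), which activates Aurora A on spindle microtubules, had 181.0, 206.6 and 227.4 CPM in SIS ECM and 231.0, 240.9 and 258.1 CPM in cells alone (−0.25 ± 0.07, adjusted p = 0.0292). With Kif11 these made 4 genes whose SIS ECM libraries all lay below the cells-alone libraries, where 2.83% of all genes did so. None lay entirely above, where 4.12% of all genes did.

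**Figure D1:**
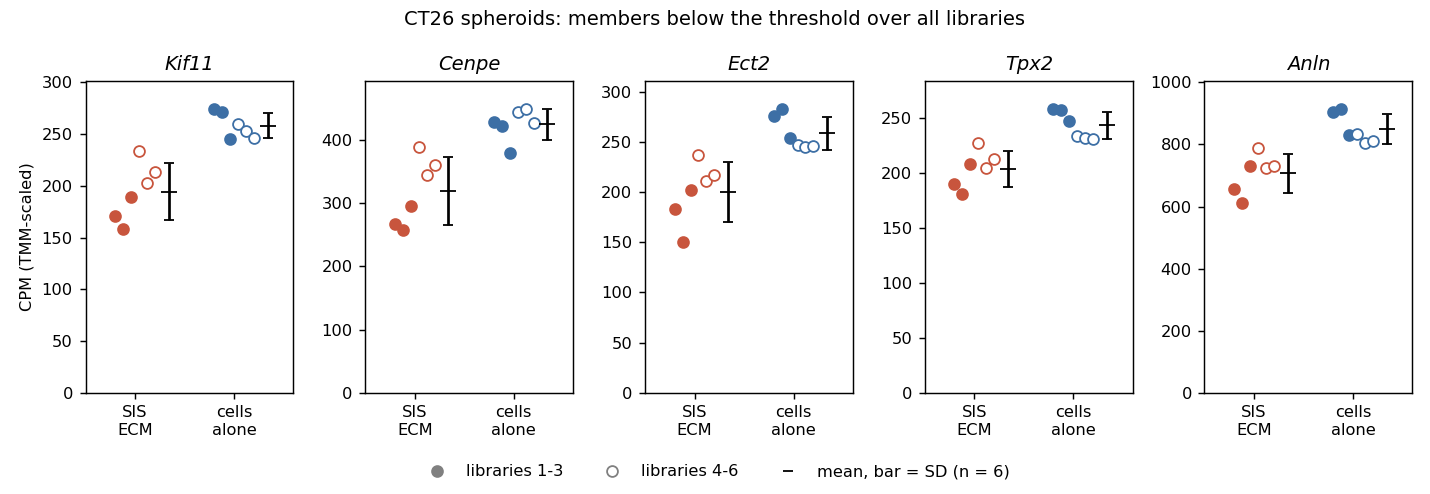
Level (CPM) of the 5 genes that fell in CT26, in each SIS ECM library (left) and cells-alone library (right). Filled points are libraries 1 to 3, open points libraries 4 to 6, and bars show mean and SD over 6 libraries. SIS ECM libraries 1 to 3 lie lowest in each panel except Anln and Tpx2, where library 3 (729.7 and 208.3 CPM) lies close to libraries 5 and 6.

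Support for these 5 genes was uneven. Kif11 and Cenpe kept an adjusted p below 0.05 whichever of the 12 libraries was left out (up to 0.0247 and 0.0482). Ect2 lost it in 3 of 12 omissions (cells-alone library 1 or 2, SIS ECM library 1; up to 0.0658), Tpx2 in 5 (cells-alone library 1, 2 or 3, SIS ECM library 1 or 2; up to 0.0702), and Anln in 11, all but that of SIS ECM library 4 (up to 0.101). The number of genes that fell was 2 when cells-alone library 1 or 2, or SIS ECM library 1, was left out. It was 3 when cells-alone library 3 or SIS ECM library 2 was, and 9 when SIS ECM library 4 was. With the library number as a replicate block 9 of 33 fell, where 7.95% of all genes fell. When the model held a term for the 2 number ranges, 22 fell, where 13.7% of all genes fell. The 5 genes were among the lowered ones in both. With no filter on low counts, Tpx2 and Anln no longer passed.

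By role, the CT26 calls over all libraries lay among spindle, kinetochore and cytokinesis genes in the fit without a number range term. With that term, where 13.7% of all genes fell, calls also took in Cdk1, Ccna2, Ccnb1, the 4 spindle checkpoint genes, Incenp, Cdca8 and Top2a. Genes of anaphase promotion stayed uncalled there. The values by role that follow are from the fit without the term. Of 7 spindle motors and microtubule proteins 2 fell (median −0.21), of 5 kinetochore and centromere genes 1 fell (−0.22), and of 3 cytokinesis genes 2 fell (−0.27). The remaining roles had none past the threshold: 6 cyclins and mitotic kinases (median −0.15), 4 spindle checkpoint genes (−0.215), 4 subunits of the chromosomal passenger complex, which corrects faulty attachments (−0.155), and the chromatid untangling enzyme Top2a (−0.23 ± 0.11, adjusted p = 0.224). The 3 genes of anaphase promotion, Cdc20, Ube2c and the securin gene Pttg1, had the smallest median (−0.03). Cyclin A2, Ccna2, came nearest to the threshold among the rest (−0.29 ± 0.09, adjusted p = 0.0617).

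Within CT26 libraries 1 to 3 the lower level took in most of the 33 genes. There 24 fell, none rose and all 33 fold changes were negative, with a median of −0.36 against 0.012 over all genes. Of 12405 genes tested in these 6 libraries, 10.1% fell, 9.92% rose and 20% changed either way. All 3 SIS ECM libraries lay below all 3 cells-alone libraries for 28 of the 33 genes, where 18.6% of all genes did so. Every spindle motor and microtubule gene fell, as did all 4 checkpoint genes, all 5 kinetochore and centromere genes and Top2a.

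The largest differences in libraries 1 to 3 were those of Kif11 (−0.62 ± 0.08, adjusted p = 0.00164), Ect2 (−0.61 ± 0.10, 0.00498) and Cenpe (−0.59 ± 0.07, 0.00175). Ndc80, the microtubule-binding arm of the kinetochore, had 62.1, 60.2 and 65.2 CPM in SIS ECM, against 83.9, 87.7 and 82.9 CPM in cells alone (−0.45 ± 0.06, adjusted p = 0.0024). Cyclin B1 (Ccnb1, −0.51 ± 0.08) and the checkpoint kinase Bub1 (−0.51 ± 0.08) fell by similar amounts. The deposited Ccnb1 values were not whole numbers in any of the 22 mouse libraries, as arises when reads are divided between genes, and how many reads were divided is not known. The 9 genes that did not pass were Incenp, Aurkb and Cdca8 of the passenger complex, Pttg1, Racgap1, Aurka, Plk1, Ccnb2 and Cdc20, with fold changes between −0.33 (Incenp) and −0.08 (Racgap1). Leaving out cells-alone library 2 left 13 genes, and the other 5 omissions left 17 to 25.

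In libraries 4 to 6 of CT26 the share of the 33 genes that fell was close to that of all genes. Cenpe (−0.27 ± 0.05, adjusted p = 0.000539), Kif11 (−0.22 ± 0.05, 0.00316) and Ect2 (−0.15 ± 0.05, 0.0309) fell and none rose, where 7.84% of all genes fell and 19% changed either way. The median over the 33 genes was −0.06, against −0.001 over all genes, and 25 were negative. For 11 genes all SIS ECM libraries lay below (17.2% of all genes), and for Kif20a alone all lay above (18.3%). Ndc80 had 96.9, 90.6 and 88.4 CPM in SIS ECM and 93.0, 96.8 and 93.6 CPM in cells alone, so its groups overlapped. Without SIS ECM library 4 the count was 12, and Ect2 lost its call in 5 of 6 omissions.

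Set against each other in one fit, the SIS ECM effect in libraries 4 to 6 minus that in libraries 1 to 3 was positive for all 33 genes (median 0.28, against −0.007 over all genes). Only Ndc80 passed the threshold (0.40 ± 0.08, adjusted p = 0.0487), where 0.383% of all genes did, 0.163% in this direction. An unadjusted p below 0.05 was found for 26 of the 33, against 18.3% of all genes. That single call was lost with any of 11 of the 12 libraries left out, and also with DESeq2 size factors. Without SIS ECM library 3, 24 of the 33 passed, but the count over all genes also went from 47 to 3089. With no filter on low counts 13 of the 33 passed, where 696 of 23068 genes did.

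**Figure D2:**
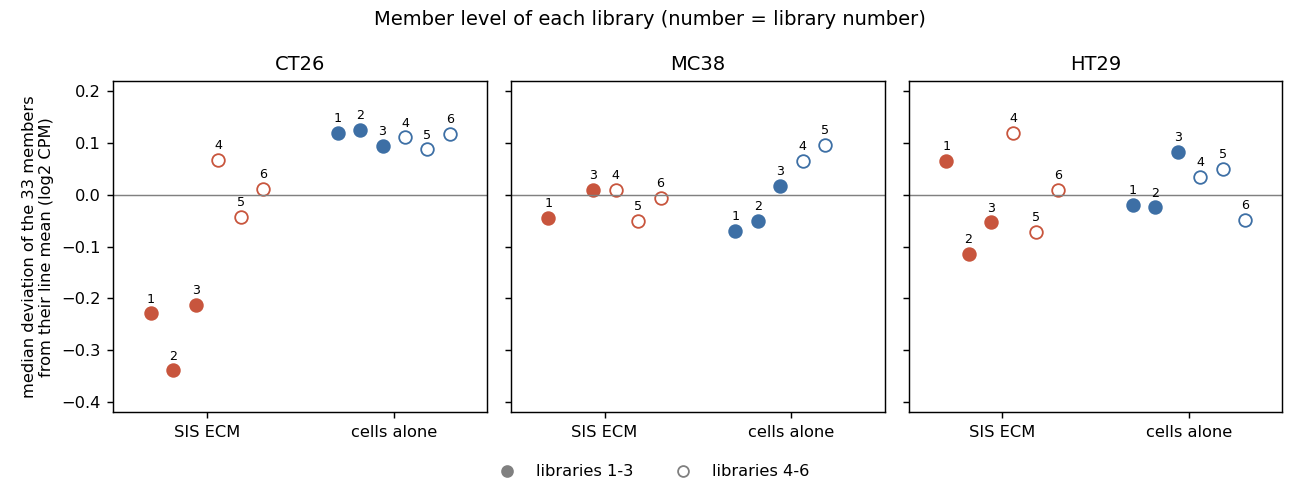
Median over the 33 genes of each library's deviation from the line's mean (log2 CPM), for SIS ECM (left) and cells-alone (right) libraries. CT26 SIS ECM libraries 1 to 3 lie at −0.23, −0.34 and −0.21, while CT26 cells-alone libraries lie between 0.09 and 0.13 in both ranges.

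Together the 33 genes took 0.513 to 0.560% of counts in CT26 SIS ECM libraries 1 to 3 and 0.590 to 0.613% in SIS ECM libraries 4 to 6, against 0.671 to 0.705% and 0.647 to 0.652% in cells alone of the same ranges. SIS ECM libraries were lowest in both. Other quantities moved with these libraries. Mitochondrial transcripts made up 3.72 to 4.23% of counts in SIS ECM libraries 1 to 3 against 4.82 to 5.01% in cells alone, and 7.66 to 8.59% against 7.87 to 8.29% in libraries 4 to 6. The summed level of 12 epithelial markers was 69.4 to 84.9 CPM in SIS ECM and 45.6 to 59 CPM in cells alone. Of the 4 tested, Cdh17 (1.85) and Krt18 (1.11) rose, and Krt20 (0.22, adjusted p = 0.147) and Cdx2 (−0.70, adjusted p = 0.0726) did not pass. The 8 leukocyte markers summed to 1.99 to 10.4 CPM against 1.23 to 3 CPM, with Cd3e and Nkg7 at 0 and Cd68 raised in libraries 1 to 3 (1.89 ± 0.14, adjusted p = 0.000217). The 9 fibroblast markers summed to 439 to 678 CPM against 502 to 764 CPM, a sum in which Col1a2 was the most abundant (−0.29, adjusted p = 0.18). The other 5 of the 6 tested had positive fold changes (median of the 6 0.39), and Dcn alone rose (0.65, adjusted p = 0.0191). In libraries 4 to 6 Col3a1, Dcn and Pdgfra rose and Col1a2 fell, and in libraries 1 to 3 Pdgfra alone rose. The part of these in the result was not tested.

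Further cell-division genes in CT26, from lists of related function, mostly fell where they passed. Over all genes 3.1% fell and 6.15% rose. Of 25 other spindle and kinesin genes 7 fell (median −0.23), with the smallest p for Tacc3 (−0.21), which stabilises spindle fibres, the spindle pole gene Aspm (−0.28) and the kinesin Kif14 (−0.32). Of 22 other checkpoint and anaphase genes 3 fell: the kinetochore adaptor Zw10 (−0.24), the cohesin protector Sgo1 (−0.41) and Kntc1 (−0.20). Among 28 other kinetochore and centromere genes only Cenpl fell (−0.24; list median −0.17). In the cohesin and condensin list, of 13 genes, 4 fell and 1 rose, and the rise was that of the cohesin subunit Stag2 (0.40 ± 0.08, adjusted p = 0.00488) beside falls of its counterpart Stag1 (−0.34) and the condensin subunit Ncapg2 (−0.32). Of 37 DNA replication genes 2 fell, the flap nuclease Fen1 (−0.32) and the origin factor Mcm10 (−0.205), with a list median of −0.11. No member of 19 G2/M regulators or of 16 tested cell cycle inhibitors and repressors passed.

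The same lists in CT26 libraries 1 to 3 gave 18 of 25 other spindle genes lower, 14 of 28 other kinetochore genes lower, 9 of 13 cohesin and condensin genes lower and 1 higher, and 11 of 37 replication genes lower and 1 higher. There 7 of 22 checkpoint and anaphase genes fell and 1 rose, 3 of 19 G2/M regulators fell, and 3 of 16 inhibitors fell and 1 rose. In libraries 4 to 6 the spindle list had 5 lower, the kinetochore list 1 lower and 1 higher, the cohesin and condensin list 5 lower and 1 higher, and the replication list 5 lower. The checkpoint list had 1 lower and 1 higher, the G2/M list 3 lower, and the inhibitor list 1 lower and 2 higher. The background shares given for the 33 genes in each range apply to these lists too.

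MC38 gave a different picture: none of the 33 genes passed over all libraries, where 9.17% of all 13146 genes changed (3.82% higher, 5.36% lower). By edgeR 6 of the 33 had an unadjusted p below 0.05, as did 25.6% of all genes. DESeq2's Wald test called 3, and its share over all genes is not given here. Fold changes ran from −0.22 (Plk1) to 0.29 (Nuf2), with 19 positive and 14 negative and a median of 0.018 against 0.006 over all genes. For 3 genes, Kif2c, Ccnb2 and Cdca8, all SIS ECM libraries lay below all cells-alone libraries, where 5.26% of all genes did so.

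The 3 genes with the smallest p in MC38 were passenger complex subunits and the mitotic kinase that acts from entry to cytokinesis. Cdca8 (borealin; chromosome 4, 124918465 to 124939311, minus strand) had 40.4, 39.6, 39.8, 38.8 and 40.5 CPM in SIS ECM libraries 1, 3, 4, 5 and 6, against 46.1, 46.8, 48.7, 41.9 and 43.3 CPM in cells-alone libraries 1 to 5. SIS ECM libraries were all lower and close together, and the log2 fold change was −0.19 ± 0.06 (adjusted p = 0.0587). Plk1 (chromosome 7, 122159439 to 122169873, plus strand) had 30.9, 34.4, 31.5, 32.9 and 29.6 CPM in SIS ECM, against 39.8, 37.5, 36.8, 32.6 and 39.2 CPM in cells alone (−0.22 ± 0.07, adjusted p = 0.0609). Aurkb (Aurora B; chromosome 11, 69045647 to 69051664, plus strand) had 41.3, 41.7, 44.0, 40.3 and 40.0 CPM in SIS ECM, against 49.9, 50.8, 46.9, 42.4 and 47.5 CPM in cells alone (−0.20 ± 0.06, adjusted p = 0.0668). In Plk1 and Aurkb it was cells-alone library 4 that reached into the SIS ECM range. Without that library all 3 passed (adjusted p = 0.02, 0.0151 and 0.0163), as they did by DESeq2, whereas the other 9 omissions left none called. Exons of Cdca8 and Plk1 overlap genes on the opposite strand over 232 and 156 bases. Whether reads were counted by strand is not stated.

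With a term for the number ranges 5 genes fell (Cdca8, Plk1, Aurkb, Kif2c and Ccnb2) and 1 rose, Nuf2, Ndc80's partner in the kinetochore arm (0.22, adjusted p = 0.0063). In that fit 12.5% of all genes fell and 12.2% rose. The replicate block, in the 4 numbers that occur in both cultures, called none.

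Within MC38 libraries 1 to 3, where 2 SIS ECM libraries stood against 3 cells-alone libraries, 5 genes rose and 6 fell, where 39.7% of all genes changed (19.3% higher, 20.4% lower). The genes that rose were Nuf2 (0.32 ± 0.06, adjusted p = 0.000169), Ccnb1 (0.19 ± 0.05), Nusap1 (0.18 ± 0.05), which bundles spindle microtubules, Ndc80 (0.18 ± 0.06) and the checkpoint gene Mad2l1 (0.15 ± 0.06). Aurkb (−0.26 ± 0.06, adjusted p = 0.00181), Cdca8 (−0.25 ± 0.06), Plk1 (−0.23 ± 0.07), Incenp (−0.155 ± 0.05) and 2 genes of the anaphase-promoting complex, its activator Cdc20 (−0.17 ± 0.06) and its conjugating enzyme Ube2c (−0.17 ± 0.06), fell. The share of members changed, 11 of 33, was not above that of all genes. The count was 6 without cells-alone library 1, 7 without cells-alone library 2 or either SIS ECM library, and 18 without cells-alone library 3. Where 1 SIS ECM library was left, it was assumed to vary like the cells-alone group.

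In MC38 libraries 4 to 6, with 3 SIS ECM libraries against 2 cells-alone libraries, Top2a (−0.235 ± 0.06, adjusted p = 0.0108), cyclin B2 (Ccnb2, −0.21 ± 0.06, 0.0236) and the microtubule depolymerase Kif2c (−0.18 ± 0.06, 0.0401) fell and none rose, where 8.48% of all genes fell, 8.65% rose and 17.1% changed. The share of the 33 genes that fell was thus close to that of all genes. The median was −0.07 and 29 of 33 were negative, against 50.7% of all genes. The count was 0 without SIS ECM library 5 or 6, 1 without cells-alone library 5 and 7 without cells-alone library 4. All SIS ECM libraries lay below all cells-alone libraries for 12 of the 33 genes and above for 2, where 23.2% and 24.1% of all genes did. In libraries 1 to 3 the counts were 10 below and 11 above, where 30.1% and 30.3% of all genes did. Kif2c, Ccnb2 and Cdca8 were below in both ranges, which their separation over all libraries had already fixed.

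Between the ranges the SIS ECM effect differed for 7 of the 33 genes in MC38, 6 of them lower in libraries 4 to 6 and 1 higher, where 21.9% of all genes differed. Ccnb1 had a fold change of −0.11 in libraries 4 to 6 and 0.19 in libraries 1 to 3 (difference −0.31 ± 0.08, adjusted p = 0.0078). In the same order Ndc80 had fold changes of −0.11 and 0.18 (−0.295 ± 0.08, 0.0149), Nusap1 of −0.07 and 0.18 (−0.25 ± 0.07, 0.0165), Mad2l1 of −0.12 and 0.15 (−0.27 ± 0.08, 0.0202) and Cdk1, the kinase that drives mitosis, of −0.13 and 0.08 (−0.21 ± 0.08, 0.0439). The one left, Top2a, is named after its values were seen (−0.22 ± 0.08, 0.0477). Cenpa, the centromeric histone, went the other way, with 0.15 and −0.11 (0.26 ± 0.08, 0.0257). For Ndc80 the MC38 difference was opposite in sign to that in CT26, where it was 0.40. With no filter on low counts Cenpa no longer passed. Without SIS ECM library 3 none of the 7 did, and 2 or 3 did without cells-alone library 1 or 2 or SIS ECM library 5 or 6.

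**Figure D3:**
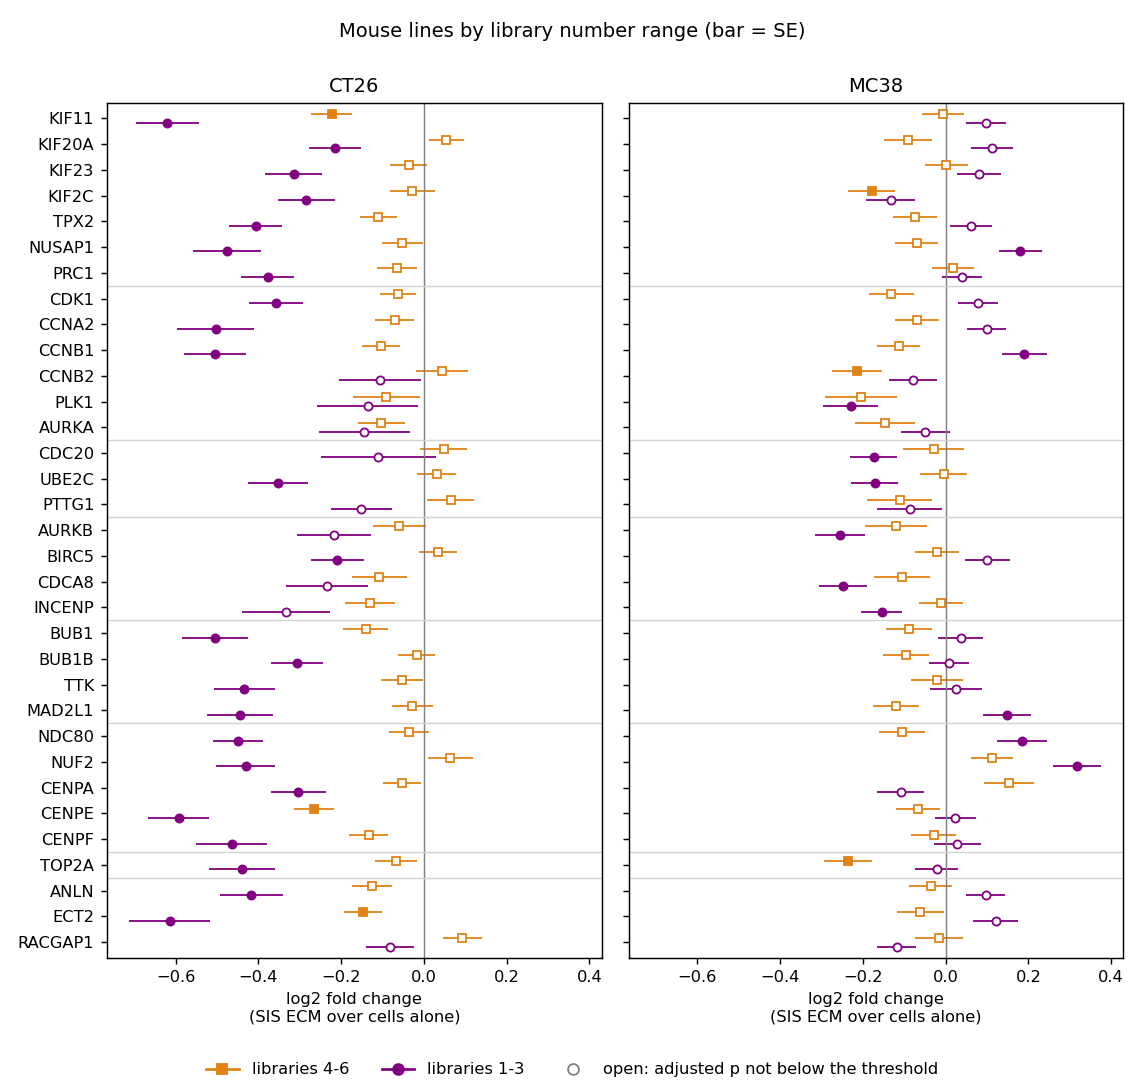
Log2 fold change of SIS ECM over cells alone (± SE) for the 33 genes, in order of role, within libraries 4 to 6 (squares) and libraries 1 to 3 (circles) of CT26 and MC38. Filled symbols have an adjusted p below 0.05, which in CT26 libraries 1 to 3 are 24 genes, all lower, and in MC38 libraries 1 to 3 are 5 higher and 6 lower.

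Mitochondrial transcripts in MC38 were at 4.92 and 4.94% in SIS ECM libraries 1 and 3 against 3.42 to 3.75% in cells alone of that range, and at 6 to 6.46% against 5.71 and 7.24% in libraries 4 to 6. Fibroblast markers, of which Col1a1 and Fap fell over all libraries, summed to 2680 to 4240 CPM in SIS ECM and 3620 to 4560 CPM in cells alone, with Thy1 at 0. Their part in these results was not tested. As background for the related lists, 5.36% of all genes fell in MC38 and 3.82% rose. Of these lists, the cell cycle inhibitors and repressors held the most calls in MC38: 4 of 17 fell, led by the inhibitor genes Cdkn1a (p21, −0.66 ± 0.11, adjusted p = 0.00423), Cdkn2d (−0.56) and Cdkn1b (p27, −0.33). Zwint, a kinetochore scaffold gene, rose (0.23) as the single call among 28 other kinetochore genes. Of these, 24 had a positive fold change (median 0.09), where 48.6% of all genes had a negative one. Among 25 other spindle genes gamma-tubulin Tubg1 (−0.35) and the minus-end kinesin Kifc1 (−0.31) fell. The checkpoint and anaphase list had falls of Fzr1 (−0.34), the late activator of the anaphase-promoting complex, and Mad2l2 (−0.41) and a rise of the kinetochore gene Zwilch (0.29). Gins1 (0.25) rose among 37 replication genes, and Gas2l3 (−0.27) fell among 19 G2/M regulators.

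In HT29 none of the 33 genes passed, where 13.5% of 15207 genes changed (7.75% higher, 5.79% lower). DESeq2's Wald test called none, and by edgeR 3 had an unadjusted p below 0.05, against 27.8% of all genes. The range of fold changes was the narrowest of the 3 lines, from −0.14 (NDC80) to 0.11 (CDK1), with a median of −0.015 against −0.005 over all genes. For all 33 genes the SIS ECM and cells-alone libraries overlapped, where 2.74% of all genes lay entirely lower and 3.64% entirely higher.

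PRC1 (ENSG00000198901.14), which crosslinks the central spindle, had 129.5, 139.9 and 151.0 CPM as the lowest, median and highest SIS ECM library, against 148.0, 150.0 and 167.8 CPM in cells alone (−0.13 ± 0.05, adjusted p = 0.0931). Of the SIS ECM libraries 5 were below every cells-alone library, and library 4 was not. CENPE (ENSG00000138778.11) had 58.5, 63.0 and 74.4 CPM in SIS ECM and 66.7, 70.8 and 74.0 CPM in cells alone (−0.14 ± 0.05, adjusted p = 0.098), and NDC80 (ENSG00000080986.13) 37.5, 41.4 and 48.3 CPM in SIS ECM and 43.6, 45.1 and 50.7 CPM in cells alone (−0.14 ± 0.06, adjusted p = 0.122). In CENPE and NDC80, 4 of the 6 SIS ECM libraries were below all cells-alone libraries. These 3 passed without SIS ECM library 4 (adjusted p = 0.0414, 0.00921 and 0.0224) and in none of the other 11 omissions. Deposited values were not whole numbers for PRC1 in 11 of 12 libraries and for AURKA in all 12, and how many reads were divided between genes is not known.

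The 33 genes moved together between HT29 libraries of the same culture. Of the 33 genes 3 and 2 lay below their line mean in SIS ECM libraries 1 and 4, while 31, 27 and 32 did in SIS ECM libraries 2, 3 and 5. In cells alone the count was 4 in library 3 and 25 in library 6. Mitochondrial transcripts made up 6.6 and 6.89% of counts in SIS ECM libraries 1 and 4 and 5.33 to 5.46% in libraries 2, 3 and 5, against 6.15 to 6.8% in cells alone. The part of library composition in these values was not tested.

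**Figure D4:**
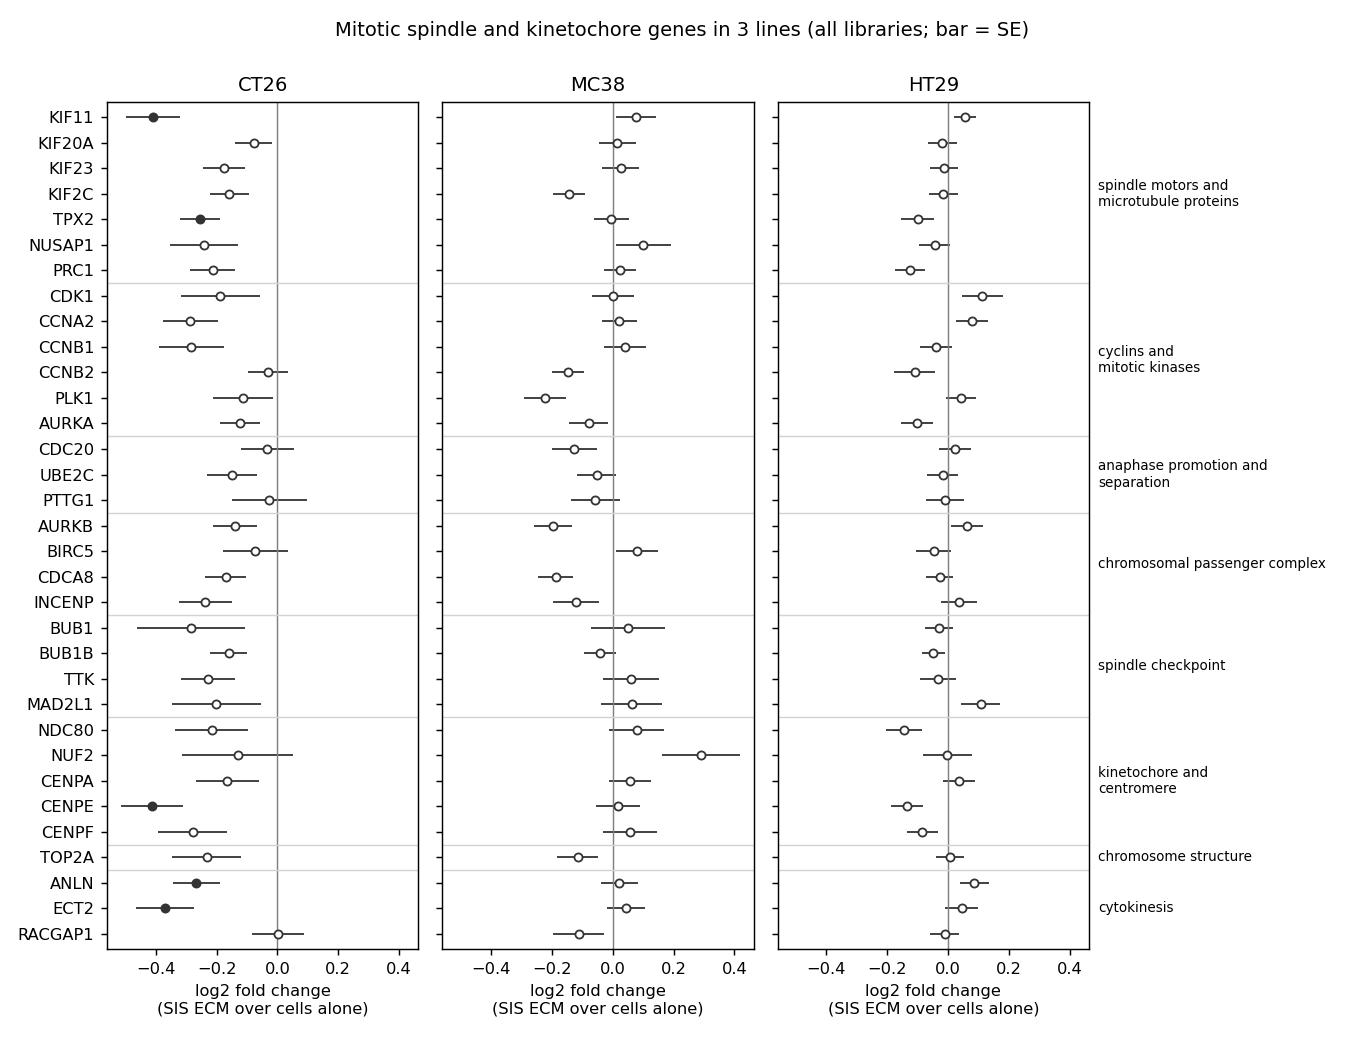
Log2 fold change of SIS ECM over cells alone (± SE) over all libraries for the 33 genes, grouped by role, in CT26, MC38 and HT29. Filled points have an adjusted p below 0.05, which are 5 genes in CT26 and none in MC38 or HT29.

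Related genes in HT29 also gave few calls within division itself, where 7.75% of all genes rose and 5.79% fell. KIF4A (−0.18), a chromosome-bound kinesin, fell as 1 of 25 other spindle genes, MIS12 (−0.16) as 1 of 28 other kinetochore genes and the cohesin ring gene SMC3 (−0.14) as 1 of 13. The replication polymerase gene POLD1 (0.21 ± 0.04, adjusted p = 0.0021) and the clamp loader gene RFC3 (0.22) rose, and LIN54 (0.15), which encodes the MuvB subunit that binds the CHR, rose. Of 18 inhibitors and repressors 4 rose, led by CDKN1C (p57, 0.65 ± 0.08, adjusted p = 3.03e-05), CCNG2 (0.31) and CDKN1B (0.18), and 2 fell. The epithelial markers, summing to 9320 to 11300 CPM in SIS ECM and 10100 to 11500 CPM in cells alone, fell in 3 of 12 (CDH17, KRT20 and VIL1).

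Whether the lines differed was tested directly. The SIS ECM effect in CT26 minus that in MC38 was lower for 3 of 33 genes and higher for none, where 2.87% of 14080 genes were lower, 5.4% higher and 8.27% differed. Kif11 had fold changes of −0.41 in CT26 and 0.08 in MC38 (difference −0.48 ± 0.11, adjusted p = 0.00915), Ect2 of −0.37 and 0.04 (−0.41 ± 0.12, 0.0358) and Cenpe of −0.41 and 0.02 (−0.42 ± 0.13, 0.0421). The difference was negative for 26 of the 33 (median −0.19, against 0.027 over all genes). Kif11 passed in all 22 omissions, Ect2 lost its call in 10 and Cenpe in 16, and the count was 8 without CT26 SIS ECM library 4. It was 1 with any one of CT26 cells-alone libraries 1 and 2, CT26 SIS ECM library 1, MC38 cells-alone libraries 1, 2 and 3 and MC38 SIS ECM libraries 1, 3 and 4 left out, and with no filter on low counts. With a term for the number ranges within each line 16 genes were lower, where 12.7% of all genes were. The effect in HT29 against the mean of the mouse lines, over 12272 genes with matching symbols, passed for none of the 33, where 5.44% of all genes passed (2.58% higher, 2.86% lower), with AURKB nearest (0.22 ± 0.08, adjusted p = 0.0837), and for 1 gene in 10 of the 34 omissions. An unadjusted p below 0.05 was found for 8 of the 33, against 17.8% of all genes.

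Levels were also compared between number ranges apart from culture, and the share of the 33 genes that differed was close to that of all genes. Libraries 4 to 6 were higher than libraries 1 to 3 for 14 genes in CT26 and lower for 3, where 52.7% of all genes differed, 26.5% higher and 26.3% lower. All 5 kinetochore and centromere genes were higher, led by Nuf2 (0.61 ± 0.08, adjusted p = 1.62e-05), and 3 of 4 checkpoint genes, led by Bub1 (0.59 ± 0.07, 6.82e-06). Racgap1 (−0.25), Plk1 (−0.23) and Incenp (−0.18) were lower. In MC38 12 genes were higher and 3 lower, where 40.8% of all genes differed and 19.9% were higher. Nuf2 (0.42 ± 0.05) and Bub1 (0.40 ± 0.05) had the smallest p there, and Racgap1 (−0.24), Incenp (−0.20) and Kif23 (−0.115) were lower. In HT29 none passed, where 0% of all genes did by edgeR. There 6 of the 33 had an unadjusted p below 0.05, as did 16.3% of all genes. With no filter on low counts 1 of the 33 passed.

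Without matrix, most of these genes were expressed more in CT26 than in MC38. In cells alone 22 were higher and 7 lower in CT26, where 37.9% of all genes were higher and 80.2% differed. Cenpf, a large kinetochore protein, differed most, at 604.9 ± 43.05 CPM in CT26 and 76.7 ± 9.17 CPM in MC38 (SD, n = 6 and 5; log2 fold change 3.16 ± 0.09, adjusted p = 3.53e-13). Anln (1.42 ± 0.06), Mad2l1 (1.35 ± 0.11), Ect2 (1.29 ± 0.07) and Cenpe (1.26 ± 0.07) followed. CPM were scaled within each line, whereas these fold changes come from a fit of both lines, so the CPM and fold changes need not match exactly. Incenp, the scaffold of the passenger complex, was the furthest the other way (−0.96 ± 0.09, adjusted p = 1.95e-07). All 5 kinetochore and all 3 cytokinesis genes were higher in CT26. Of the genes that fell with SIS ECM in CT26, Kif11 (0.30 ± 0.07), Cenpe, Ect2 and Anln were higher there in cells alone and Tpx2 lower (−0.16 ± 0.06).

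Compared per length, as CPM per kilobase of merged exons, Top2a stood highest in both mouse lines, at 87.6 in SIS ECM and 102.9 in cells alone of CT26 and at 101.8 and 110.2 in MC38. Anln (78.0 and 93.7), Ccna2 (59.5 and 72.5) and Ccnb1 (51.3 and 62.4) came next in CT26 SIS ECM and cells alone. The lowest were Cdca8 in CT26 (6.01 and 6.77) and Cenpf in MC38 (5.17 and 4.97), where Cenpf stood at 39.2 in CT26 cells alone. Exons of Ccna2 overlap Exosc9 on the opposite strand over 510 bases. CPM were scaled within each line, so small differences between the lines cannot be read from these values. No gene lengths were used for HT29, so its genes are not compared with each other.

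The authors' deposited table, made with their own model, called 11 of the 33 genes lower in CT26, and none higher. It called 1 lower in MC38 (Cdca8) and 1 in HT29 (PRC1), and none higher in either. The share of all genes that it called was not worked out, so these counts have no background beside them. In the authors' deposited table the CT26 fold changes were −0.37 for Kif11 (adjusted p = 0.000961), −0.37 for Cenpe (0.00268), −0.33 for Ect2 (0.00286), −0.27 for Anln (0.00244) and −0.21 for Tpx2 (0.00329). The remaining 6 there were Ccna2, Ccnb1, Cdca8, Cenpf, Prc1 and Top2a. The authors' deposited table of Hallmark gene sets gave normalised enrichment scores in CT26 of −1.61 for the mitotic spindle set, −2.35 for the G2/M checkpoint set and −2.42 for E2F targets (adjusted p = 0.00241 each). In MC38 the authors' deposited table had −1.25 (adjusted p = 0.0958), 0.88 and 0.97 for the same sets, and in HT29 1.44 (adjusted p = 0.011), 0.84 and 0.66. The mitotic spindle set holds 20 of the 33 genes in each species, and these scores come from the same libraries as the results above.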

How the data were processed

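Libraries were poly(A)-selected and strand-specific, sequenced as read pairs, per the labels' protocols. The submitters' processing notes name cutadapt 1.18, STAR 2.7.0f, RSEM 1.3.1, limma and the builds mm10 and hg38. The authors deposited expected counts per gene, which need not be whole. Here they were rounded, filtered with filterByExpr (minimum count 10, by culture group) and scaled with TMM. Each line was fitted alone in edgeR 4.0.16 (R 4.3.3), without a block or batch term, using quasi-likelihood tests and Benjamini-Hochberg correction across every gene tested. CT26 was set against MC38, and HT29 against the mean of the mouse lines by matching symbol, as a difference of effects within 1 fit. The authors' deposited table of comparisons gives log2 fold changes, p-values and normalised enrichment scores, and 34 columns of per-sample values in such tables were not used.

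The members and gene lists were chosen with earlier results of these data known. Genes were described in full where they passed in a line, else where they had the 3 smallest p. Same-numbered CT26 libraries deviated together (correlations 0.222 to 0.484), as did MC38 libraries (0.188 to 0.321), but not HT29 libraries (−0.096 to 0.065). Same-numbered libraries thus exceeded a minimum of 0.1 in the mouse lines only. The labels state no pairing, and no main fit paired libraries by number. Only the replicate block, an alternative run in each line, did so. Another number of the same range correlated more than the own number for 5 of 6 numbers in CT26 and 2 of 4 in MC38, so these correlations do not separate number from range. No 2 of 80 replicate pairs held identical values. Precision rests on the replicate spread, since depth was even. Scripts were tested on simulated data. Alternatives were DESeq2 1.42.0, its size factors, limma-voom (limma 3.58.1), no filter on low counts, a replicate block, a number range term and leaving out each library.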

Additional observations from a re-analysis of the deposited data

Results flagged for a closer look

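One library stood far from the rest of its group among the 36 groups of 5 or 6 libraries examined. Each group held the libraries of a line and culture, for a gene given in full or picked for a difference between number ranges. PRC1 reached 167.8 CPM in cells-alone library 3 of HT29, against 148.0 to 151.5 CPM in the other cells-alone libraries. Chance alone gives about 1 such library in 20 groups. Deposited PRC1 values were not whole in 11 of 12 HT29 libraries.

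The SIS ECM effect differed between CT26 and MC38, by a test of the difference itself in edgeR, for Kif11 (−0.478, adjusted p = 0.00915), Ect2 (−0.405, 0.0358) and Cenpe (−0.422, 0.0421). Their fold changes within MC38 were 0.08, 0.04 and 0.02.

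Between number ranges the SIS ECM effect differed in CT26 for the kinetochore gene Ndc80 (0.402, adjusted p = 0.0487), with the smaller effect in libraries 4 to 6. In MC38 the effect in libraries 4 to 6 minus that in libraries 1 to 3 was negative for Ccnb1 (−0.307), Ndc80 (−0.295), Mad2l1 (−0.272), Nusap1 (−0.254) and Cdk1 (−0.213), and positive for Cenpa (0.257), with adjusted p between 0.0078 and 0.0439. Top2a passed in MC38 as well, and the 7 of 33 genes that did were not a larger share than the 21.9% of all genes. In CT26 0.383% of all genes passed. Ndc80 passed in both lines with opposite signs, but its CT26 call was lost in 11 of 12 omissions and its MC38 call in 3 of 10. Mitochondrial transcripts differed between the ranges in both lines, and their part in these differences was not tested.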

How the results depend on the processing

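Other settings gave 278 values and leaving out a library gave 963, each made up of counts, medians and fold changes of the genes picked for description. Of the 278 values, 149 were such fold changes of single genes. None of these fold changes changed sign in either. Genes outside that choice could: Cenpe in MC38, positive over all libraries, was −0.015 with the number range term and −0.028 with the replicate block. Medians of the 33 genes that lay near 0 also changed sign. The MC38 median (0.018) was −0.012 with the replicate block and −0.013 and −0.009 without cells-alone library 1 and SIS ECM library 3, and that of MC38 libraries 1 to 3 (0.028) was −0.009 without SIS ECM library 3. The HT29 median (−0.015) was 0.002 and 0.006 without cells-alone library 3 and SIS ECM library 2, and the HT29 median between ranges (0.022) was −0.007 without SIS ECM library 4. Of the 278 values, 247 stayed on their side of the threshold or close to their count. Where they did not, the cause was not tested. In CT26 the 33 genes gave 3 calls with no filter on low counts, 9 with the replicate block and 22 with the number range term (2281 and 3545 of all genes for the last 2), against 5 of 33 and 1135 genes. In MC38, DESeq2 called 3, with its count over all genes not given here, and the range term 6 (3246 genes). With no filter, CT26 libraries 4 to 6 gave 5 calls, and CT26 against MC38 gave 1, or 16 with the range term (3740 genes). The CT26 test between ranges gave 0 calls and 28 genes with DESeq2 size factors, and 13 calls and 696 genes with no filter. The HT29 test between ranges gave 1 call and 431 genes with no filter.

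Leaving out 1 library at a time, the calls among the 33 ranged from 2 to 9 in CT26, 0 to 3 in MC38 (626 to 1948 genes) and 0 to 3 in HT29. In CT26 libraries 1 to 3 they ranged from 13 to 25 (740 to 5507 genes, median −0.415 to −0.35), and in CT26 libraries 4 to 6 from 2 to 12 (1548 to 2913 genes). In MC38 libraries 1 to 3 they ranged from 6 to 18 (median −0.009 to 0.074), and in MC38 libraries 4 to 6 from 0 to 7 (1238 to 3294 genes). Between ranges they ran from 0 to 24 in CT26 (0 to 3089 genes) and 0 to 8 in MC38 (1555 to 3094 genes). They were 1 to 8 for CT26 against MC38 and 0 to 1 for HT29 against the mouse lines.

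The replicate block left 0 calls in MC38 and 0 in HT29. The own number was the best match for 1 of 6 numbers in CT26, 2 of 4 in MC38 and 0 of 6 in HT29. Fits within a number range hold 2 or 3 libraries a culture, so calls there move with single libraries. In MC38 ranges an omission can leave 1 library in a culture, assumed to vary like the other. Replicate pairs differed by a chi-square of 1.89 to 137 per degree of freedom, so the spread between libraries, more than depth, limits these values.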
